A study of Homo sapiens with 9 samples.

Results

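The MCM (minichromosome maintenance) genes code for the helicase that opens the DNA double helix ahead of the replication fork, and for proteins that bear its name. Transcripts of 10 such genes, MCM2 to MCM10 and MCMBP, were followed in MDA-MB-231 cells, an established human line of triple-negative breast cancer, with and without GNE-140, an inhibitor of the lactate dehydrogenase isozymes. The rule that picks the genes goes by name and uses no measured value, though it was set with earlier results of these data known. Each was represented by the probe set whose platform annotation gives that symbol alone. All 10 were found, with 1 probe set each, among 22354 genes with a symbol of their own and 53617 probe sets in all.

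RNA was hybridized to 9 whole-transcript arrays (GeneChip Human Gene 2.1 ST). By title and treatment label, 2 GNE-140 arrays and 3 control arrays formed set 1, and 2 GNE-140 arrays and 2 control arrays formed set 2. GNE-140 was given at 50 µM, and a time of 24 h is stated for all samples. The drug was dissolved in DMSO, and the sources used here do not say whether the controls received DMSO. On 6 arrays, namely the 4 with GNE-140 and the 2 controls of set 2, the source name gives a Boswellia preparation instead, and the paper's text gives other numbers of arrays per set. The groups below follow the titles and treatment labels, and this conflict touches each GNE-140 result given here. Nothing in the labels says that the arrays came from separate cultures, so the p-values reflect array-to-array spread that could be technical alone.

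The deposited signals are on a log2 scale, where a difference of 1 is a fold of 2. The sets lay on different scales, with array medians of 1.32 to 1.36 in set 1 and 2.27 to 2.31 in set 2, so GNE-140 was always set against control within a set or with the set as a block. In set 1, 23415 probe sets (43.7%) carried an identical value on at least 3 of the 5 arrays, whereas 18 (0.0336%) did so on at least 3 of the 4 set 2 arrays. The mesenchymal markers VIM, CD44, AXL and CAV1 stood between the 93.4 and 99.0 percentile of probe sets, and ESR1 and PGR, the hormone receptors that the line lacks, between the 16.2 and 39.2 percentile. These 4 mesenchymal markers summed to 29.28 to 29.39 log2 units on the GNE-140 arrays and 29.65 to 29.97 on the control arrays of set 1, and to 29.82 to 30.01 with GNE-140 and 30.61 to 30.75 in controls in set 2. None of the 4 was called by limma with the set as a block, and AXL (log2 fold change -0.21, adjusted p = 0.275) and CAV1 (-0.29, adjusted p = 0.208) lay below all control arrays in both sets, with an unadjusted p under 0.05. Of the markers of luminal or epithelial lines, CDH1 stood between the 48.7 and 64.9, GATA3 between the 59.4 and 70.0 and EPCAM between the 83.5 and 84.4 percentile. EPCAM had a log2 fold change of -0.44 with the set as a block (limma adjusted p = 0.160), lay below all control arrays in both sets and was called lower within set 2 (-0.61, limma adjusted p = 0.0960), as was GATA3 (-0.66, limma adjusted p = 0.0474). The part of these markers in the results for the MCM genes was not tested. Of 5 fibroblast and 4 leukocyte markers none was called by limma with the set as a block or had an unadjusted p under 0.05 in that fit. 1 of the 9, COL1A1, was below all control arrays in set 1 alone, and ITGAM was above all control arrays in set 2 alone. At an unadjusted p under 0.05, 1 fibroblast marker was lower within set 1 and 1 leukocyte marker higher within set 2. The 5 fibroblast markers summed to 5.45 to 5.67 log2 units on the GNE-140 arrays and 5.90 to 6.18 on the control arrays of set 1, and to 9.64 to 10.21 on the GNE-140 arrays and 9.71 to 10.39 on the control arrays of set 2. The 4 leukocyte markers summed to 3.79 to 4.0 on the GNE-140 arrays and 3.87 to 3.93 on the control arrays of set 1, and to 5.84 to 6.20 with GNE-140 and 5.24 to 6.04 in controls in set 2.

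MCM2 to MCM7 assemble into a ring that encircles DNA. The origin recognition complex, CDC6 and CDT1 load pairs of these rings onto replication origins before S phase, a step known as licensing, and kinases together with CDC45 and the GINS proteins then turn each ring into the active CMG helicase. MCM8 and MCM9 are related proteins that act together in homologous recombination, MCM10 is a scaffold without the helicase fold that is needed when origins fire, and MCMBP binds free MCM subunits and helps to assemble and store them. Many of these genes are known targets of the E2F transcription factors, which are held back in resting cells, and their transcripts are low in cells that have left the cycle. In RNA from a whole culture, fewer cells that express a gene and less RNA per cell cannot be told apart.

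The RefSeq promoter windows, of equal length around each transcription start (build GRCh38.p14), covered 8 of the 10 genes, all but MCM4 and MCM5. They were searched on both strands for the E2F letters TTTCCCGC, TTTGGCGC, TTTCGCGC and TTTGCCGC. Of these 8 genes, 6 held a match (MCM2, MCM3, MCM6, MCM7, MCM8 and MCMBP) and MCM9 and MCM10 did not. The matches lay in 6 of the 11 windows of these genes, against 3.31% of all 35116 windows. The stretches that hold the matches are shown because E2F factors are known regulators of many of these genes and few windows in all hold these letters, with the matched bases in capitals, read on the gene's own strand. The first base of the transcript counts as 1 and the base before it as -1.
MCM2, chr3:127598395-127598424, plus strand, 2 overlapping matches over bases 3 to 14: tgggtcacgtgaaccactTTTCGCGCGAAA
MCM3, chr6:52284889-52284936, minus strand, bases -174 to -167: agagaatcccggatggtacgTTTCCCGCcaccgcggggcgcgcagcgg
MCM3, chr6:52284739-52284768, minus strand, bases -4 to 4: gtggcgggaagagttcggaagtTTTCGCGC
MCM6, chr2:135876502-135876615, minus strand, 4 matches between bases -152 and -79: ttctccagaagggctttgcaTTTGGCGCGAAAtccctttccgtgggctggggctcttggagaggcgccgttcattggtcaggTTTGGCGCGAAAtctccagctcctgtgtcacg
MCM7, chr7:100101557-100101604, minus strand, bases -187 to -180: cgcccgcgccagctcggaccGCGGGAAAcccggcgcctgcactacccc
MCM7, chr7:100101398-100101426, minus strand, bases -9 to -2: cggtcacgtggggggcgacgTTTCGCGCc
MCM8, chr20:5950656-5950685, plus strand, bases 27 to 34: gagcggaagttggatcactgaaGCGCCAAA
MCMBP, chr10:119872844-119872872, minus strand, a downstream alternative start, bases -9 to -2: agcgcggtcggcggcggctaTTTCCCGCc

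In MCM2 and in both copies in MCM6 the letters run into a second match on the opposite strand, which makes the 12-base runs shown. MCM7 has 3 windows for 3 start sites, of which 1 held the matches, and MCMBP has 2, of which 1 did. The CHR element TTTGAA or TTCGAA, a motif of genes expressed late in the cycle, was found in 1 of the 8 genes (MCM6). It stood in 1 of their 11 windows, against 16.4% of all windows. CCAAT stood in 6 of the 8 genes and in 8 of the 11 windows, against 34.6% of all windows. GGGCGG stood in 7 of the 8 genes and in 9 of the 11 windows, against 45.0%. MCM9 and MCM10 each held the last pair without an E2F match. These letters are a description of the windows, and binding was not measured.

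In the limma fit with set as a block, 8 of the 10 MCM genes were called lower with GNE-140 at an adjusted p under 0.1, against 0.532% of all 53617 probe sets called lower. None was called higher, against 0.433%, and none had an unadjusted p under 0.05 in that direction. The 8 were all subunits of the replicative ring, MCM8 and MCM10. MCM9 and MCMBP were not called. The median log2 fold change of the 10 genes was -0.57, beside 0.005 over all probe sets. Among the 14401 genes with a symbol of their own and a mean above the median probe set, 1.58% were called lower.

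**Figure D1:**
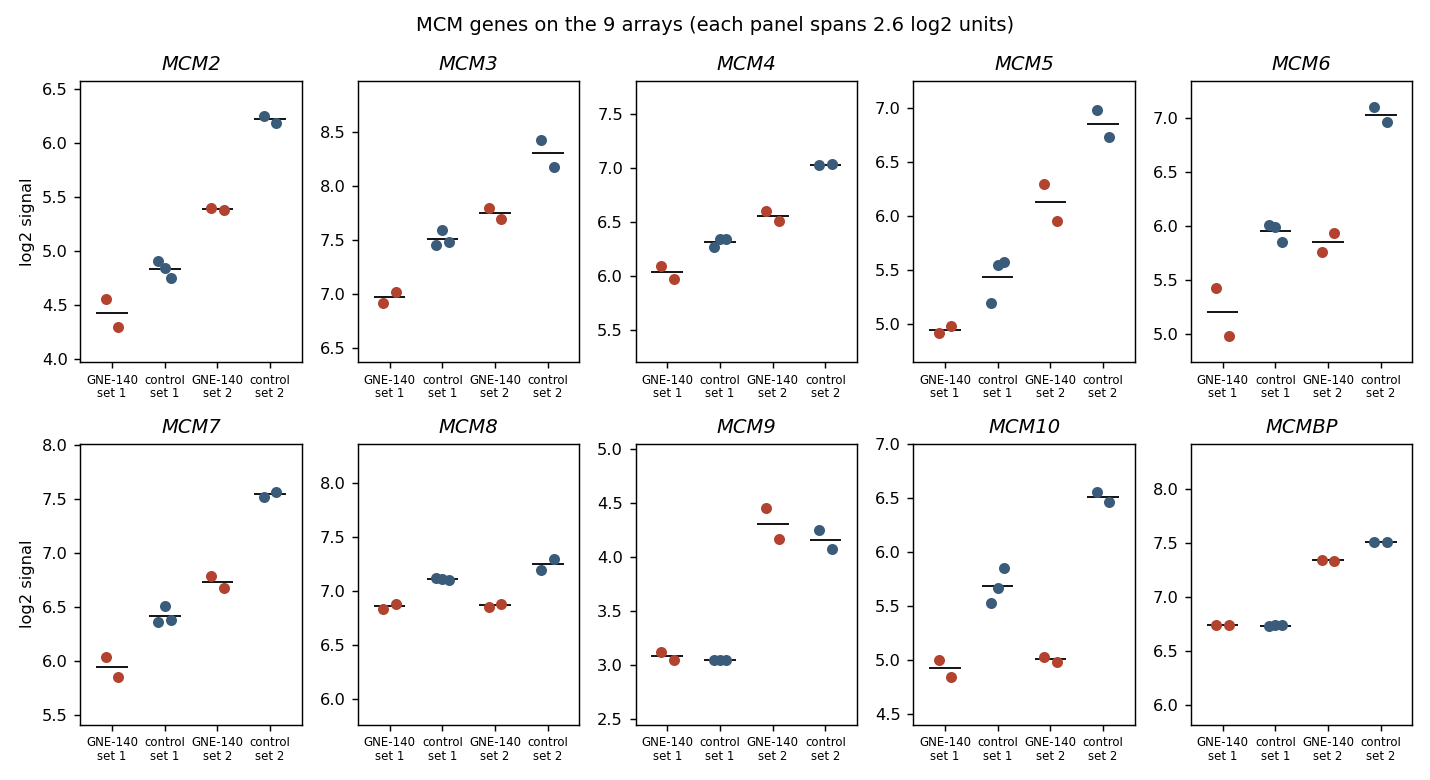
The log2 signal of each MCM gene (y axis, each panel spanning 2.6 log2 units) on the 9 arrays, with GNE-140 in red left of control in blue within each set and a bar at each group mean. In 8 of the 10 panels every GNE-140 array lies below every control array of its set, and MCM9 and MCMBP are the exceptions.

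MCM6, a subunit of the ring that the DDK kinase (CDC7 with DBF4) acts on (chr2:135839626-135876443), had the largest change among MCM2 to MCM7. It read 5.43 and 4.98 on the GNE-140 arrays of set 1, against 6.01, 6.0 and 5.85 on the control arrays. In set 2 it read 5.76 and 5.94 with GNE-140, against 7.11 and 6.96 in controls. The groups did not overlap, with 0.42 log2 units between the nearest arrays of set 1 and 1.02 in set 2. Its log2 fold change was -0.95 (SE 0.13, 95% interval -1.23 to -0.66, limma adjusted p = 0.0248), or 51.9% of the control signal. It ranked 84 from the lowest among 22354 genes.

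MCM7, whose introns carry a cluster of microRNAs (chr7:100092728-100101397), read 6.03 and 5.86 on the GNE-140 arrays of set 1, against 6.36, 6.51 and 6.38 on the control arrays. In set 2 the values were 6.78 and 6.68 with GNE-140, against 7.52 and 7.57 in controls. Every GNE-140 array was below every control array of its set, and the gap was wider in set 2 (0.74) than in set 1 (0.33). The log2 fold change was -0.63 (SE 0.09, limma adjusted p = 0.0285), or 64.7% of the control signal.

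MCM2 carries the tail that binds histones at the front of the fork (chr3:127598411-127622436). It read 4.56 and 4.30 on the GNE-140 arrays of set 1, against 4.91, 4.85 and 4.75 on the control arrays. The set 2 values were 5.40 and 5.39 with GNE-140, against 6.26 and 6.19 in controls. The groups were apart in both sets, by 0.19 in set 1 and 0.79 in set 2. MCM2 thus had a log2 fold change of -0.60 (SE 0.10, limma adjusted p = 0.0513), or 66.0% of control.

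MCM5 forms, with MCM2, the gate through which the ring is opened for loading (chr22:35400140-35455031). It read 4.92 and 4.98 on the GNE-140 arrays of set 1, against 5.20, 5.54 and 5.57 on the control arrays. On the arrays of set 2 it read 6.30 and 5.96 with GNE-140, against 6.98 and 6.73 in controls. Within sets it had the largest SE of the ring subunits (0.16 in set 1 and 0.17 in set 2). Still the groups did not overlap, with gaps of 0.22 in set 1 and 0.43 in set 2. For MCM5 the log2 fold change was -0.60 (SE 0.12, limma adjusted p = 0.0890), or 66.1% of control.

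MCM3, the neighbour of MCM5 in the ring (chr6:52264015-52284742), read 6.91 and 7.02 on the GNE-140 arrays of set 1, against 7.45, 7.59 and 7.48 on the control arrays. In set 2 it read 7.79 and 7.70 with GNE-140, against 8.43 and 8.18 in controls. The distance between the groups was alike in both sets, with gaps of 0.43 in set 1 and 0.38 in set 2. MCM3 had a log2 fold change of -0.55 (SE 0.07, limma adjusted p = 0.0248), or 68.4% of control.

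MCM4, another subunit that DDK acts on (chr8:47960941-47978160), read 6.09 and 5.98 on the GNE-140 arrays of set 1, against 6.27, 6.34 and 6.34 on the control arrays. The set 2 values were 6.60 and 6.51 with GNE-140, against 7.03 and 7.04 in controls. The shift was the smallest of the 6 ring subunits, and the groups were again apart, by 0.18 in set 1 and 0.43 in set 2. With the set as a block MCM4 stood at -0.37 on the log2 scale (SE 0.07, limma adjusted p = 0.0584), or 77.3% of control.

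MCM10, needed for the CMG helicase to start moving (chr10:13161558-13211110), had the lowest log2 fold change of the 10 genes. It read 5.01 and 4.85 on the GNE-140 arrays of set 1, against 5.53, 5.67 and 5.85 on the control arrays. On the arrays of set 2 it read 5.03 and 4.99 with GNE-140, against 6.56 and 6.46 in controls. The gaps between the groups were 0.53 in set 1 and 1.43 in set 2, the widest of the family. Its log2 fold change was -1.10 (SE 0.15, 95% interval -1.44 to -0.75, limma adjusted p = 0.0268), or 46.8% of the control signal, and it ranked 47 from the lowest of 22354 genes. With a fold over 2 in the blocked fit asked as well, together with an unadjusted p under 0.05 and 1 direction in both sets, MCM10 was the only member left, against 0.138% of probe sets in the lower direction. The cut on fold depends on which estimate it is applied to, since MCM6 lay short of it in the blocked fit (1.93-fold) and past it within set 2 (log2 fold change -1.18). The paper lists both MCM6 and MCM10 as down-regulated, with folds that match those found here within set 2 and not the blocked ones.

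MCM8, which with MCM9 opens DNA during repair by homologous recombination (chr20:5950652-5998977), was called lower by a small amount. It read 6.83 and 6.88 on the GNE-140 arrays of set 1, against 7.11, 7.11 and 7.10 on the control arrays. In set 2 it read 6.85 and 6.88 with GNE-140, against 7.19 and 7.29 in controls. Both groups were tight and did not overlap, with gaps of 0.22 in set 1 and 0.32 in set 2. For MCM8 the log2 fold change was -0.31 (SE 0.06, limma adjusted p = 0.0687), or 80.7% of control.

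MCM9 (chr6:118813455-118935159) was not called. It read 3.12 and 3.05 on the GNE-140 arrays of set 1, against 3.05 on each of the 3 control arrays, and 1 identical deposited value stood on 4 of these 5 arrays. The set 2 values were 4.45 and 4.16 with GNE-140, against 4.25 and 4.07 in controls, so that the groups overlapped. The log2 fold change was 0.09 (95% interval -0.09 to 0.26, limma adjusted p = 0.731). With 4 of 5 values tied, set 1 holds little information on MCM9.

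MCMBP (chr10:119829440-119873581) read 6.74 and 6.74 on the GNE-140 arrays of set 1, against 6.73, 6.74 and 6.74 on the control arrays, with 1 deposited value shared by 4 of the 5. On the arrays of set 2 it read 7.35 and 7.34 with GNE-140, against 7.51 and 7.51 in controls, and there the groups were 0.16 apart. The log2 fold change was -0.07 over both sets (95% interval -0.20 to 0.06, limma adjusted p = 0.683). Within set 2 it was -0.17 (SE 0.07, limma adjusted p = 0.314). Identical values on at least 4 of the 5 set 1 arrays occurred in 18.8% of all probe sets, and in 18.0% of genes above the median probe set.

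**Figure D2:**
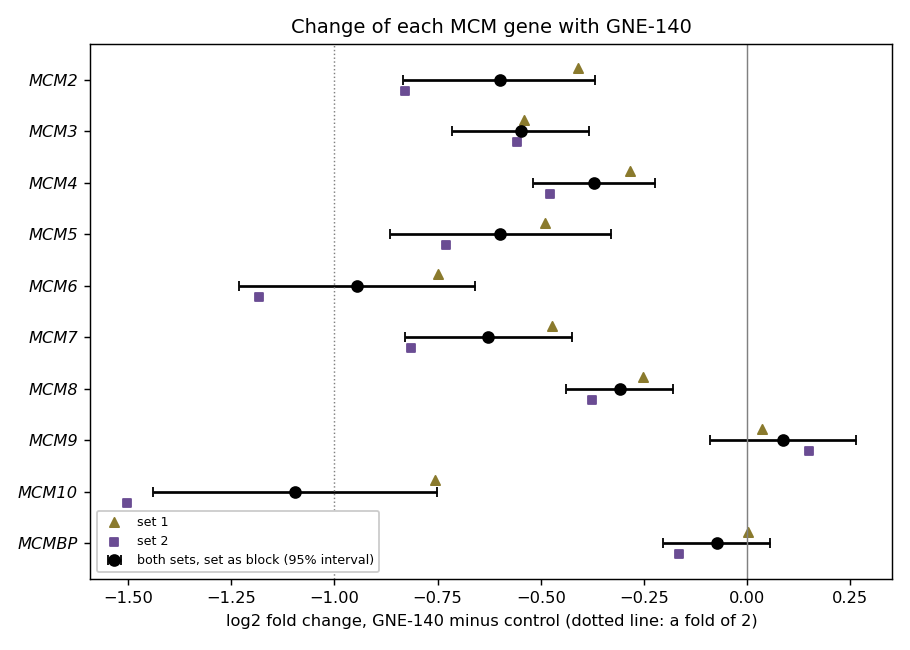
Log2 fold change of each MCM gene, GNE-140 minus control (x axis), with the set as a block (black, bars are 95% intervals) and within set 1 (triangles) and set 2 (squares); the dotted line is a fold of 2. The 8 called genes lie between -1.10 and -0.31, MCM9 at 0.09 and MCMBP at -0.07, and for all 8 called genes the square of set 2 lies left of the triangle of set 1.

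Taken set by set, with the spread shared over the 9 arrays, 7 of the 10 genes were called lower within set 2 (MCM2, MCM3, MCM4, MCM6, MCM7, MCM8 and MCM10), against 1.23% of probe sets. Within set 1, 0 of the 10 were called by limma, against 0.0746% of probe sets, and 8 of the 10 had an unadjusted p under 0.05 and a lower signal. The share of all probe sets at that unadjusted p in this fit is not given here. MCM10 had a log2 fold change of -0.76 in set 1 (SE 0.11, limma adjusted p = 0.125) and -1.50 in set 2 (SE 0.12, limma adjusted p = 0.00655). MCM6 had -0.75 in set 1 (SE 0.14, limma adjusted p = 0.242) and -1.18 in set 2 (SE 0.16, limma adjusted p = 0.0307). In contrast, MCM3 had nearly the same change in each, -0.54 in set 1 (SE 0.10, limma adjusted p = 0.233) and -0.56 in set 2 (SE 0.11, limma adjusted p = 0.0768).

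The difference between the sets was tested as the interaction of set and treatment. None of the 10 genes was called by limma, against 0.0541% of probe sets, and 3 of the 10 had an unadjusted p under 0.05 (MCM2, MCM7 and MCM10), each with the smaller change in set 1. Over all probe sets, 8.36% had an unadjusted p under 0.05 in this test. The response of MCM10 in set 1 minus that in set 2 was 0.75 (95% interval 0.36 to 1.13, limma adjusted p = 0.380). For MCM2 it was 0.42 (95% interval 0.07 to 0.77, limma adjusted p = 0.533). For MCM3 it was 0.02, with an interval of -0.34 to 0.37.

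Without reference to the size of the spread, every GNE-140 array lay below every control array in set 1 for 8 of the 10 genes, against 5.47% of probe sets. In set 2 this held for 9 of the 10, which adds MCMBP, against 18.6% of probe sets. In both sets it held for 8 of the 10, the 8 genes called, against 2.14% of probe sets and 4.62% of genes with a symbol of their own above the median probe set.

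How firmly each gene was called differed. How many of all probe sets were called in the fits below is not given here. A loss particular to the MCM genes thus cannot be told from fewer calls across the array. When each array was left out in turn, the call of MCM3 held in 9 of 9 fits, that of MCM6 in 8, that of MCM7 in 7 and that of MCM10 in 6. MCM6 lost its call without GNE-140 array B of set 2, and MCM7 without GNE-140 array A or control array A of set 2. In set 2, leaving out GNE-140 array A, GNE-140 array B or control array B ended the call of MCM10. MCM2 kept its call in 2 fits, those without GNE-140 array A or control array C of set 1, and its adjusted p from limma ranged between 0.0246 and 0.170. MCM4 kept it in 2, those without GNE-140 array A or control array A of set 1 (0.0631 to 0.171). MCM5 kept it in 1, that without control array A of set 1 (0.0543 to 0.241), and MCM8 in 0 (0.112 to 0.179). The log2 fold changes moved less than the calls, from -1.22 to -1.01 for MCM10, from -0.71 to -0.55 for MCM2 and from -0.33 to -0.28 for MCM8.

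The subunits of the ring are needed in equal numbers, so the responses of neighbours in the ring were compared with each other, along with those of the other members against MCM2. For each of 11 pairs, the difference of the log2 fold changes was tested by an exact two-sided permutation of the labels within sets, whose 60 arrangements allow no p under 0.0167. MCM2 and MCM5 had a difference of -0.002 (95% interval -0.37 to 0.36, exact permutation p = 1.0). MCM5 minus MCM3 was -0.05 (95% interval -0.28 to 0.18) and MCM3 minus MCM7 was 0.08 (95% interval -0.18 to 0.34). For these 3 pairs of neighbours no difference was found, with intervals that lie between -0.37 and 0.36.

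The other 3 pairs of neighbours differed, each at the smallest p the arrangements allow (exact permutation p = 0.0167, adjusted over the 11 pairs 0.0306). MCM7 minus MCM4 was -0.26 (95% interval -0.36 to -0.15), MCM4 minus MCM6 was 0.57 (95% interval 0.31 to 0.84) and MCM6 minus MCM2 was -0.35 (95% interval -0.48 to -0.21). The fall of MCM4 was thus smaller than that of both its neighbours in the ring, and the fall of MCM6 larger than that of both its own. The signal of 2 probe sets need not respond alike to the same change in RNA, and the pairs share members.

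Outside the ring, MCM8 minus MCM9 was -0.40 (95% interval -0.63 to -0.16, exact permutation p = 0.0167, adjusted 0.0306), so the signals of these partners in recombination differed in response. MCM9 minus MCM2 was 0.69 (95% interval 0.36 to 1.01) and MCMBP minus MCM2 was 0.53 (95% interval 0.33 to 0.72), each at that same p. MCM9 and MCMBP each carried 1 identical value on 4 arrays of set 1, so that set holds little information on either gene. In set 1 MCM8 minus MCM9 was -0.29, close to the change of MCM8 itself (-0.25), and in set 2 it was -0.53. MCM10 minus MCM2 was -0.50 (95% interval -0.78 to -0.21, exact permutation p = 0.0333, adjusted 0.0523). MCM8 minus MCM2 was 0.29 (95% interval 0.06 to 0.53, exact permutation p = 0.0667, adjusted 0.0917).

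**Figure D3:**
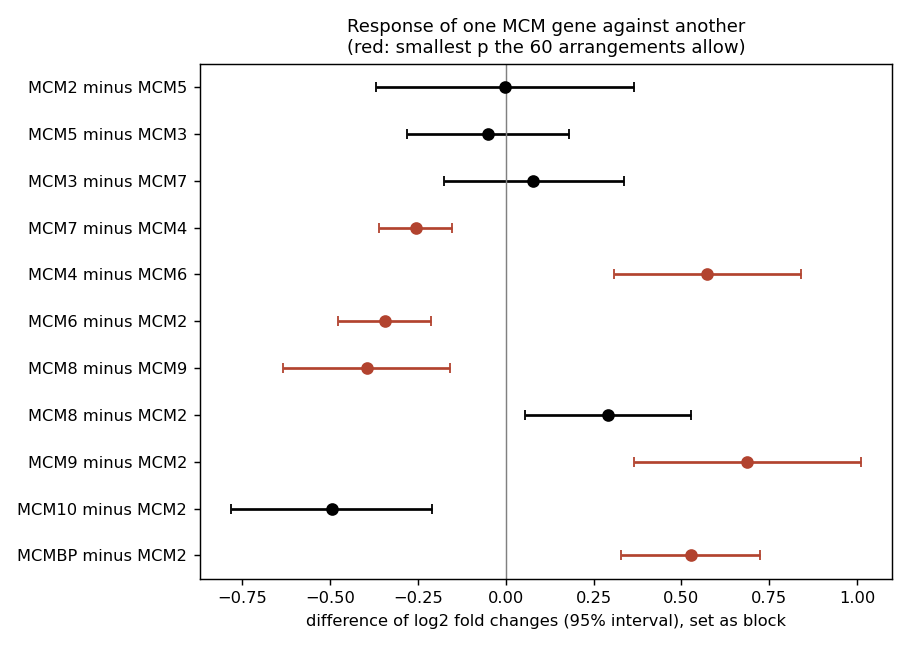
Difference between the log2 fold changes of 2 MCM genes, first minus second (x axis, with 95% intervals), for 11 pairs; red marks the pairs at the smallest p that the 60 arrangements allow, 0.0167. The pairs MCM2 and MCM5, MCM5 and MCM3, and MCM3 and MCM7 straddle 0, whereas MCM4 minus MCM6 lies at 0.57 and MCM6 minus MCM2 at -0.35.

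Across the 9 arrays, with each set centred on its own mean, the 15 pairs of ring subunits correlated with r of 0.845 to 0.994 (median 0.932). This is a description over arrays that share sets and treatments. Once the mean of each set and treatment was taken off, r ranged from -0.299 to 0.906 (median 0.33), so most of the shared pattern lay between the groups. MCM2 and MCM6 (r = 0.906) and MCM4 and MCM7 (r = 0.859) kept the highest values. MCM9 had an r of -0.592 to -0.213 with the other members over the centred arrays.

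By a rule on likeness, the genes closest to the mean centred profile of MCM2 to MCM7 over the 9 arrays, out of 14391 genes ranked, were NDC80 (r = 0.995), RFC4 (0.992), FAM83D, DIAPH3 and CMTM8 (0.990 each), NUCKS1 and KNTC1 (0.989 each), and PRIM1, NUSAP1 and ANLN (0.987 each). Since they were picked for a profile that differs mainly between the groups, their calls follow in part from the choice and are a description. NUCKS1 had a log2 fold change of -0.27 (limma adjusted p = 0.148). NDC80 had a log2 fold change of -1.58 and ANLN of -1.41, larger in size than that of any MCM gene, and RFC4 had -0.64, near the median of the family.

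Other genes of DNA replication were listed by role, and their counts stand beside the 0.532% of all probe sets, and 1.58% of genes above the median probe set, called lower in the same fit. The genes that load the MCM ring had 2 of 9 measured members called lower and none higher, with a median log2 fold change of -0.26. CDC6, the ATPase that joins the origin recognition complex to bring the ring, averaged 4.91 with GNE-140 and 5.85 in controls in set 1, and 4.81 with GNE-140 and 6.25 in controls in set 2. Its log2 fold change of -1.17 (SE 0.16, limma adjusted p = 0.0285) was close to that of MCM10. ORC1, the subunit of the origin recognition complex whose level varies with the cycle, had -0.82 (SE 0.13, limma adjusted p = 0.0429). CDT1, the carrier of the ring, had -0.43 (limma adjusted p = 0.325), and its inhibitor GMNN -0.70 (limma adjusted p = 0.130). ORC2 to ORC6 had values between -0.26 and -0.05, none called, and ORC5 carried 1 identical value on 4 arrays of set 1.

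Of 13 genes that fire origins or complete the CMG helicase, 3 were called lower and none higher, with a median of -0.58, close to that of the MCM genes. CDC45, which binds the ring to form the active helicase, averaged 3.64 with GNE-140 and 4.30 in controls in set 1, and 3.92 with GNE-140 and 5.33 in controls in set 2. It had a log2 fold change of -1.0 (SE 0.16, limma adjusted p = 0.0385). MTBP, a partner of the firing factor TICRR, had -0.65 (limma adjusted p = 0.0266), and GINS4 had -0.64 (limma adjusted p = 0.0935). The other GINS subunits of the helicase were not called, with -0.78 for GINS1, -0.92 for GINS2 and -0.45 for GINS3 (limma adjusted p = 0.106, 0.187 and 0.318). CDC7, the kinase that acts on MCM2, MCM4 and MCM6, had -0.36 (limma adjusted p = 0.175) and its activator DBF4 -0.19 (limma adjusted p = 0.517).

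At the fork, 15 of 27 genes were called lower and none higher, with a median of -0.54. 1 of the 27, POLD4, had an unadjusted p under 0.05 and a higher signal. CLSPN, the adaptor of the replication checkpoint, had the lowest value, a log2 fold change of -1.21 (limma adjusted p = 0.0150). WDHD1, which ties the helicase to DNA polymerase alpha, had -1.0 (limma adjusted p = 0.0203), and TIMELESS, of the fork protection complex, had -0.93 (limma adjusted p = 0.0818). The primase subunit PRIM1 had -0.89 and the catalytic subunit POLA1 of polymerase alpha -0.80. Polymerase epsilon, which travels with CMG, had -0.59 for its catalytic subunit POLE and -0.91 for POLE2. Its subunits POLE3 (0.06) and POLE4 (0.002) were not called. In set 1 POLE3 carried 1 identical value on 4 arrays and POLE4 on 5, so that set holds little information on either. All 5 subunits of the clamp loader were called, with -0.37 for RFC1, -0.70 for RFC2, -0.76 for RFC3, -0.64 for RFC4 and -0.41 for RFC5. The flap nuclease FEN1 (-0.66), the ligase LIG1 (-0.54) and the single-strand binding subunit RPA1 (-0.49) were called as well. Not called were PCNA (-0.50, limma adjusted p = 0.152), POLA2 (-0.57), PRIM2 (-0.425), TIPIN (-0.26), RPA2 (-0.18) and RPA3 (-0.19). Nor were POLD1 (-0.54), POLD2 (0.125) and POLD3 (-0.19). RPA3 carried 1 identical value on the 5 arrays of set 1, and within set 2 it had -0.415 (limma adjusted p = 0.125).

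Of 5 genes that take the ring off DNA, none was called by limma, 2 had an unadjusted p under 0.05 and a lower signal and 1 a higher one, and the median was -0.14. LRR1, which directs the ubiquitin ligase to CMG at the end of replication, had -0.36 (limma adjusted p = 0.120). Neither of the 2 measured partners of MCM8 and MCM9 was called, and 1 of them had an unadjusted p under 0.05. HROB, which loads MCM8 and MCM9, had -0.25 (limma adjusted p = 0.313) and MCMDC2 -0.09 (limma adjusted p = 0.739). MCMDC2 carried 1 identical value on 4 arrays of set 1.

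**Figure D4:**
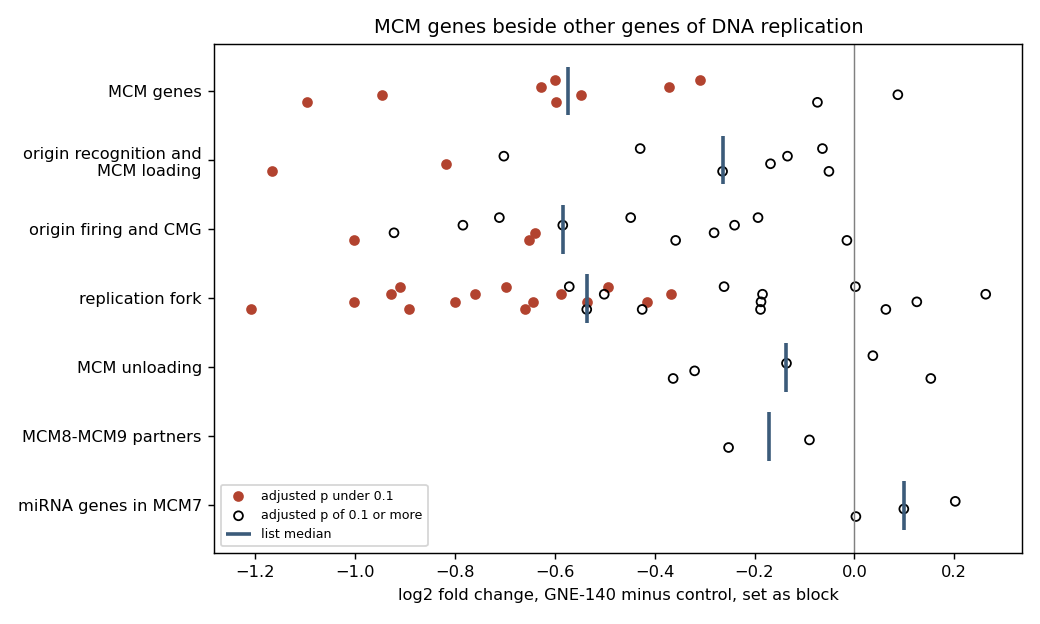
Log2 fold change, GNE-140 minus control with the set as a block (x axis), of the MCM genes and of the genes of 6 other lists (rows); filled red points were called at an adjusted p under 0.1, open points were not, and blue bars are medians. The medians are -0.57 for the MCM genes, -0.58 for origin firing and CMG, -0.54 for the fork and -0.26 for loading, against 0.10 for the microRNA genes that lie within MCM7.

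The MCM7 gene holds 3 microRNA genes on its own strand. They are shown because they lie inside a member that fell, with the seed, bases 2 to 8, in capitals. miR-93-5p and miR-106b-5p have the same seed and miR-25-3p another (RefSeq, GRCh38.p14).
hsa-miR-25-3p, chr7:100093571-100093592, minus strand: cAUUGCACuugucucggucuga
hsa-miR-93-5p, chr7:100093815-100093837, minus strand: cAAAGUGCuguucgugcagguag
hsa-miR-106b-5p, chr7:100094043-100094063, minus strand: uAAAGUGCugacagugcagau

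None of the probe sets of these microRNA genes was called by limma, and 0 of the 3 had an unadjusted p under 0.05. MIR25 averaged 2.27 with GNE-140 and 2.16 in controls in set 1, and 3.74 with GNE-140 and 3.65 in controls in set 2. The log2 fold changes were 0.10 for MIR25 (limma adjusted p = 0.766), 0.003 for MIR93 (limma adjusted p = 0.993) and 0.20 for MIR106B (limma adjusted p = 0.586). Such probe sets read the hairpin region, and the mature microRNA was not measured.

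The genes that start within 1000 bases of an MCM gene on the other strand were also compared. TPRA1 starts 180 bases from MCM2 and had a log2 fold change of 0.15 (limma adjusted p = 0.661). TRMT6, which starts 119 bases from MCM8, had 0.02 (limma adjusted p = 0.943). AP4M1, whose starts lie 40 to 889 bases from those of MCM7, had -0.25 (limma adjusted p = 0.454). Within set 2 the log2 fold changes were 0.329 for TPRA1, 0.018 for TRMT6 and -0.495 for AP4M1, which had -0.044 within set 1. In these 3 measured pairs, with the set as a block, the MCM gene was called lower and its neighbour was not, though the difference within a pair was not tested. The neighbour of MCM9, LOC124901389, starts 244 bases away and was not analysed here.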

How the data were processed

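RNA of MDA-MB-231 cells was hybridized to 9 arrays, and the log2 signals deposited by the authors were used, made with Affymetrix Expression Console. Transcriptome Analysis Console is named in the submitters' processing notes. The background correction, summarization and normalization behind them were not given in the sources used here. Scanner files were not used here, and that the values are log2 was judged from their range. No array column lacked a sample. Probe sets were named through the platform annotation (23866 with 1 symbol, 1852 with several, 27899 with none), taking the highest mean of several for a gene. limma 3.58.1 in R 4.3.3 (lmFit, eBayes) was fitted to all 53617 probe sets with the set as a block, and p-values were adjusted by Benjamini-Hochberg over all of them. Changes within sets and the interaction came from a fit of 4 group means. Neither a filter nor a further normalization was applied. The procedure was tested on simulated data. The members, the lists, the named genes and the tests were chosen with earlier results of these data known. Named were every member, called or MCM-binding genes of each list, all fork genes, neighbours and the 10 most alike. LRWD1 had no probe set with that symbol alone.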

Additional observations from a re-analysis of the deposited data

How the results depend on the processing

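The precision is limited by 9 arrays, by identical values in set 1 and by the conflict in the labels. The 8 genes called with the set as a block were lower with GNE-140 in all 17 alternatives fitted, MCMBP in 16 and MCM9 in 0. No member value reversed a call, and no member was called higher under any of them. Of the member values under an alternative, 101 kept their side of the threshold and 69 lost a call. The count of 8 held with quantile normalization, with median centring, with a filter on dim probe sets and with a trended, robust prior. How many of all probe sets were called under each of these is not given here, and the filter also changes how many were tested. The count of members whose groups did not overlap in both sets was 8 with quantile normalization and with median centring. It was also 8 with any 1 array left out, but there it could not fall, since leaving out an array cannot make separate groups overlap. By limma, 0 members were called without the set term (2 of 10 had an unadjusted p under 0.05), in set 1 alone (8 of 10) and in set 2 alone (8 of 10). Of all probe sets, 1.12%, 4.6% and 10.4% had an unadjusted p under 0.05 in these fits, in that order. No probe set at all was called in these 3 fits, whose lowest adjusted p was 0.168, 0.206 and 0.106. With the replicate letters as a replicate block, 0 members were called, and 8 of 10 had an unadjusted p under 0.05. That fit called 0 of all 53617 probe sets, of which 4648 had an unadjusted p under 0.05. Arrays with the same letter did not deviate together (r of -0.152 to 0.03), so the letters were not taken to pair them. In a group of 2 arrays the deviations mirror each other, so these r values are not independent checks. With the study's further thresholds, applied to the blocked fold change, the count was 1, MCM10. The paper lists MCM6 as well, with a fold that matches the one within set 2 (log2 fold change -1.18). In the blocked fit MCM6 was 1.93-fold lower. Leaving out 1 array at a time gave 2 to 6 members called, 2 without GNE-140 array A or B of set 2, 3 without control array A or B of set 2, 4 without GNE-140 array B or control array B of set 1, 5 without control array C of set 1, and 6 without GNE-140 or control array A of set 1. The share of all probe sets called in these fits is not given here, so the losses cannot be taken as particular to the MCM genes. A mean over several probe sets of a gene gave no value, since each member has 1. Apart from the choice of estimate for MCM6, the cause of these differences was not tested.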
